A study of Mus musculus with 6 samples.

Results

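The CXC chemokines described here are the interferon-induced ligands of the receptor CXCR3 (Cxcl9, Cxcl10 and Cxcl11), Cxcr3 itself, the neutrophil-attracting chemokines Cxcl1, Cxcl2 and Cxcl5, and the tissue chemokines Cxcl12, Cxcl14 and Cxcl16. These 10 genes were picked by name from the 31490 distinct row names of a deposited gene-level table, and each had a row of its own name. After a filter on detection 9 of the 10 could be tested, among 14713 genes in all, and Cxcl2 could not. The tumours were mouse gastrointestinal stromal tumours (GIST), sarcomas of the gut wall that arise from the pacemaker cells of the intestine, known as interstitial cells of Cajal, or their precursors. The labels give 3 tumour samples from mice treated with imatinib, an inhibitor of the kinase KIT, and 3 from mice given vehicle, both injected intraperitoneally. All 6 samples came from C57Bl/6 mice of 6 weeks that carried the activating allele Kit V558Δ/+, so the vehicle group also had the oncogene, and no sample without it was analysed here. Dose and duration are not given in the sources used here. RNA of the tumour tissue was read on Illumina beadchips, with an array for each sample.

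CXCL9, CXCL10 and CXCL11 are secreted proteins that cells make when interferon gamma, and for CXCL10 also type I interferon, binds its receptor. They bind CXCR3 on activated T cells and natural killer cells and draw these cells into inflamed tissue and tumours. CXCL1, CXCL2 and CXCL5 carry a glutamate-leucine-arginine motif, bind CXCR2 on neutrophils and are induced mainly through NF-kB by interleukin 1, TNF and interleukin 17.

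The arrays differed little in how much they measured: 20684 to 21439 probes passed a detection p of 0.05 on each. The 10 chemokine genes were covered by 20 probes, each read from 21 to 69 beads per array. Signals were background-corrected, quantile-normalized and put on a log2 scale, and all levels below are on that scale unless raw signal is named. A gene was called changed at an adjusted p under 0.05, from limma with Benjamini-Hochberg adjustment over all 14713 genes. Nothing in the labels says whether replicates were different mice, so these p-values measure the spread between samples, which may be partly technical. The tumour label was checked against Kit, the driver receptor, which was detected on all 6 arrays at 13.88, 14.47 and 13.48 with imatinib and at 14.39, 14.01 and 14.33 with vehicle. Etv1, the lineage transcription factor of these tumours, was likewise detected on every array. Thbs4, another gene of that marker list, was detected on none.

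The interferon-induced ligands were lower in imatinib-treated tumours than in vehicle-treated tumours on every array, by 19.9-fold for Cxcl9, 16.1-fold for Cxcl10 and 7.01-fold for Cxcl11, which only 1 of 3 imatinib arrays detected. Cxcl9 fell past the threshold, while Cxcl10 and Cxcl11 missed it at limma adjusted p of 0.053 and 0.0547. The other CXC chemokines had no common direction: none passed the threshold, Cxcl5 and Cxcl14 had higher means with imatinib, Cxcl1 and Cxcl16 had lower means by less than 1 log2 unit, and Cxcl12 differed by less than the spread within groups. Of the 9 genes tested, 1 was called, Cxcl9, where 1.58% of all genes tested were called in either direction and 1.05% were called lower. At a looser adjusted p under 0.1 the count was 4 of 9, where 11.3% of all genes passed. The arrays of the groups did not overlap for 6 of the 9, with 5 lower and 1 higher on every imatinib array. Of all genes 31.9% had groups that did not overlap: 14.5% were lower and 17.4% were higher.

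**Figure D1:**
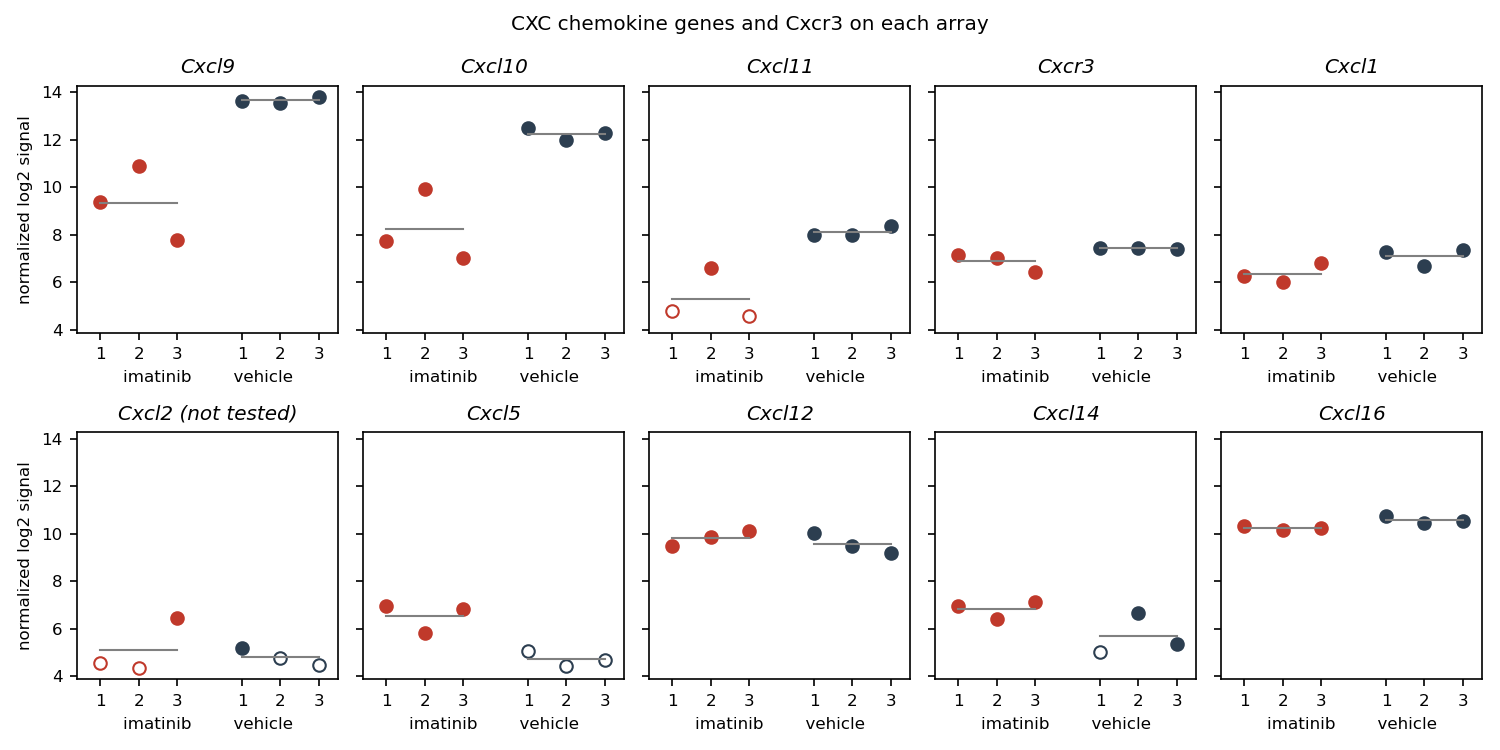
Normalized log2 signal (vertical axis) of each CXC gene on the 3 imatinib and the 3 vehicle arrays, with 1 point per array, open where not detected, and a line at each group mean. Cxcl9, Cxcl10 and Cxcl11 lie lower on all 3 imatinib arrays, with imatinib replicate 2 nearest to vehicle, while Cxcl12 and Cxcl14 overlap between groups.

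Cxcl9, the chemokine most closely tied to interferon gamma, read 9.35, 10.89 and 7.77 on imatinib arrays 1, 2 and 3, against 13.64, 13.52 and 13.78 on vehicle arrays 1, 2 and 3. The vehicle arrays were close together, within 0.26, whereas the imatinib arrays spread over 3.12, and the highest imatinib value still lay 2.64 below the lowest vehicle value. In raw signal the imatinib arrays gave 661, 2011 and 221, and the vehicle arrays gave 13691, 11821 and 14433. The means were 9.34 ± 1.56 with imatinib and 13.65 ± 0.13 with vehicle (SD, n = 3 each), a difference of -4.31 ± 0.72 (SE, 95% confidence interval -6.05 to -2.58, limma adjusted p = 0.0493). Among the 12711 genes whose tested probe was detected on all 6 arrays Cxcl9 ranked 1 by size of fall in this fit, and Cxcl10 ranked 2. The call of Cxcl9 held without imatinib replicate 2 and without vehicle replicate 2. It was lost when any of the other arrays was left out, with limma adjusted p of 0.149 without imatinib replicate 1, 0.11 without imatinib replicate 3, 0.122 without vehicle replicate 1 and 0.185 without vehicle replicate 3, while the difference stayed between -5.09 and -3.52.

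The gene lies on chromosome 5, and its upstream sequence is printed because Cxcl9 was the member called. Sequences here are the 250 bases before the annotated start in the RefSeq annotation of GRCm38.p6, read along the gene's strand, and were searched on both strands for 3 motifs. These were the interferon gamma activated site GAS (TTCNNNGAA), the interferon-stimulated response element ISRE (2 copies of GAAA with any 2 bases between them) and the kB consensus bound by NF-kB. Of 32851 mouse promoter windows of that length, 7.02% held the GAS letters, 2.98% the ISRE letters and 3.90% the kB consensus. The Cxcl9 window is the minus strand of chr5:92328080-92328329, and none of the 3 motifs matched within it, which says only that those letters are not in this window.
Cxcl9: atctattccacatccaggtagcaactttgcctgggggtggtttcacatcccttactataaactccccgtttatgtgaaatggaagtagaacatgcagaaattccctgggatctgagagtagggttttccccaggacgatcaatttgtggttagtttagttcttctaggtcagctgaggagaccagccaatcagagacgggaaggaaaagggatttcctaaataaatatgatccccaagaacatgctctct

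Cxcl10, also known as IP-10, had 2 probes, both detected on all 6 arrays. The brighter probe read 7.73, 9.94 and 7.03 with imatinib and 12.50, 11.97 and 12.27 with vehicle. The other read 6.35, 9.14 and 6.17 with imatinib and 11.86, 11.14 and 11.71 with vehicle. On both probes the groups were apart, and imatinib replicate 2 was again the highest of its group. The brighter probe averaged 8.23 ± 1.52 with imatinib and 12.25 ± 0.26 with vehicle (SD, n = 3 each), a difference of -4.01 ± 0.71 (SE, 95% confidence interval -5.72 to -2.30, limma adjusted p = 0.053). The other probe differed by -4.35. The raw signal of the brighter probe was 229, 1081 and 143 on the imatinib arrays and 6476, 4078 and 5332 on the vehicle arrays.

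Cxcl10 is also on chromosome 5, and the protein-coding gene Art3 lies between it and Cxcl9. Its upstream window is the minus strand of chr5:92348890-92349139, shown because it held matches to both the ISRE and the kB consensus. Capitals mark the matches, an ISRE starting 213 bases upstream of the start and kB consensus matches starting 159 and 103 bases upstream. A match is a description of letters and was not measured as a bound site.
Cxcl10: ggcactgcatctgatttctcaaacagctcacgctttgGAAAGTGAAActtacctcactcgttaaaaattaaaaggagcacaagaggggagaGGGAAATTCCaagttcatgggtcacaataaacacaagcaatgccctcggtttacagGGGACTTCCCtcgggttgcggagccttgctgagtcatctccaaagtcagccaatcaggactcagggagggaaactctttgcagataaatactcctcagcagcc

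Cxcl11, also called I-TAC, is the remaining CXCR3 ligand, and C57Bl/6 mice are known to carry a frameshift in this gene, so its transcript does not give the full protein. The row deposited as Cxcl11 rested on a probe that was detected on no array, with levels between 4.31 and 4.60. The level tested came from another row, deposited under the older symbol Scyb11, which the RefSeq table lists as a synonym of Cxcl11 alone. That probe read 4.77, 6.58 and 4.57 with imatinib and 8.0, 7.99 and 8.36 with vehicle. It was detected on all vehicle arrays but on 1 of 3 imatinib arrays, replicate 2, so its imatinib mean lies partly at background. The means were 5.31 ± 1.11 with imatinib and 8.12 ± 0.21 with vehicle (SD, n = 3 each), and the difference was -2.81 ± 0.52 (SE, 95% confidence interval -4.07 to -1.55, limma adjusted p = 0.0547). In the authors' processed values the difference was smaller, at -1.78. Whether the silent probe and the working probe read different transcripts of the gene was not tested.

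**Figure D2:**
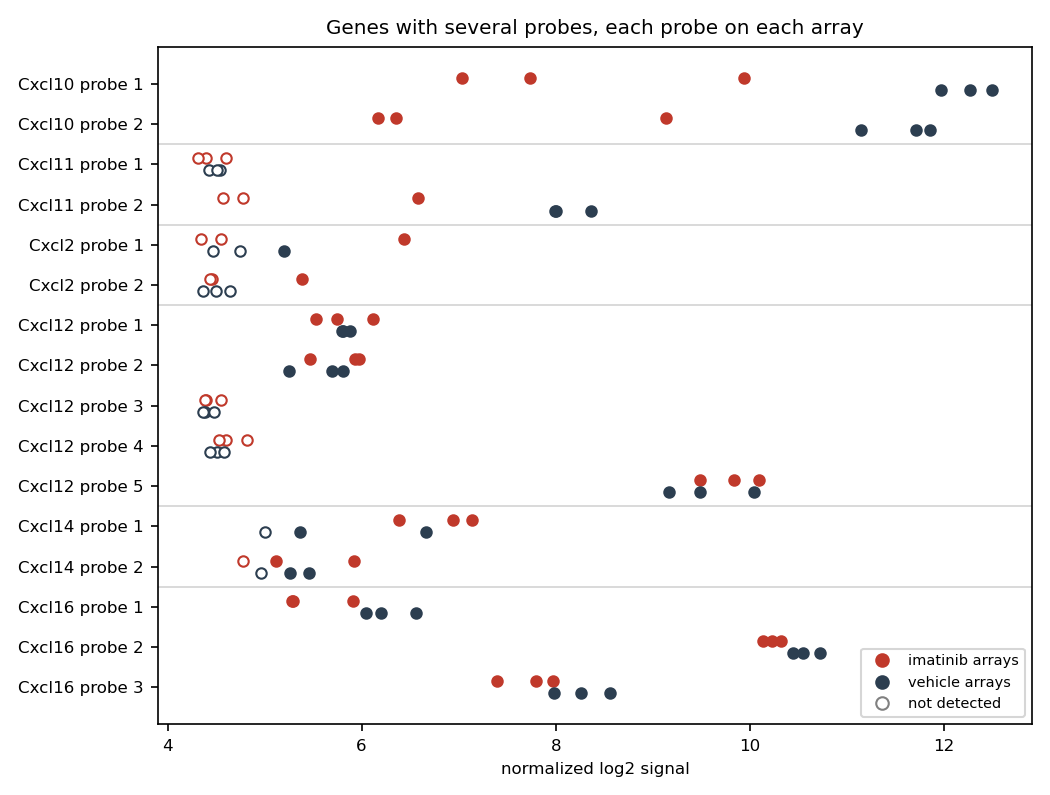
Normalized log2 signal (horizontal axis) of every probe of the CXC genes with more than 1 probe, with imatinib arrays drawn above vehicle arrays and open points where not detected. Both Cxcl10 probes and Cxcl11 probe 2 (deposited as Scyb11) are lower with imatinib, whereas Cxcl11 probe 1 stays at background on all 6 arrays.

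Cxcr3 encodes the receptor of these ligands. It read 7.13, 7.03 and 6.44 with imatinib and 7.45, 7.42 and 7.39 with vehicle. The vehicle arrays were almost the same and all imatinib arrays lay below them, with replicate 3 the lowest. The means were 6.87 ± 0.37 with imatinib and 7.42 ± 0.03 with vehicle (SD, n = 3 each), a difference of -0.55 ± 0.19 (SE, 95% confidence interval -1.02 to -0.09) that did not pass (limma adjusted p = 0.145). In whole tumours fewer cells of a type and less RNA per cell cannot be told apart. T cell markers therefore stand beside this value: 12 of 14 tested had a lower mean with imatinib, against 45.7% of all genes, 8 were lower on every imatinib array, against 14.5% of all genes, and none was called. Their summed level on the linear scale ran from 3626 to 4794 with imatinib and from 5824 to 6079 with vehicle. Cd8a, the coreceptor of cytotoxic T cells, differed by -1.23 ± 0.27 (SE, n = 3 each, limma adjusted p = 0.0656). Cd3e, a subunit of the T cell receptor complex, differed by -0.81 ± 0.19 (SE, n = 3 each, limma adjusted p = 0.0749). The markers did not differ evenly: Cd8b1, the other chain of the CD8 coreceptor and named after its values were seen, differed by -0.14 ± 0.17 with overlapping groups (SE, n = 3 each, limma adjusted p = 0.607). Of the natural killer and cytotoxic cell markers, 8 of 9 tested had a lower mean with imatinib, against 45.7% of all genes, and none was called. The summed level of these markers was 7668 to 9156 with imatinib and 8154 to 9172 with vehicle. The smallest p-values there were those of Ctsw and Nkg7, genes of cytotoxic cells, at -0.86 and -1.02. Prf1, the pore-forming perforin of the same cells, went the other way and is named after its values were seen. It read 11.52, 11.28 and 11.93 with imatinib and 10.70, 10.83 and 10.97 with vehicle, a difference of 0.74 ± 0.19 (SE, limma adjusted p = 0.0811). The defining markers Ncr1, Gzma and Gzmb did not reach the detection filter. Their part in the Cxcr3 difference was not tested.

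The genes that carry the interferon gamma signal to these ligands differed by less than the ligands. Of 13 tested of 17 listed, 9 had a lower mean with imatinib, against 45.7% of all genes. The median difference of the 13 was -0.30 against 0.04 over all genes. Of the 13, 1 was called, where 1.58% of all genes were called in either direction and 1.05% were called lower. That gene was Il12rb1, a receptor chain for interleukin 12, at least 2.01-fold lower with imatinib, where the tested probe was detected on none of the 3 arrays and another probe on 1 (limma adjusted p = 0.0338). The tested probe passed the filter only through the vehicle arrays. Ifngr2, a chain of the interferon gamma receptor, was 0.64 ± 0.13 higher (SE, n = 3 each, limma adjusted p = 0.0594). The transcript of interferon gamma itself was not measurable: its 2 probes were detected on no array.

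Other genes that interferon gamma induces mostly had lower means with imatinib. Of 18 tested, 16 had a lower mean with imatinib, against 45.7% of all genes. On every imatinib array 13 were lower, against 14.5% of all genes. None was called, and their median difference was -1.16. Serping1, the inhibitor of complement C1, differed by -0.70 ± 0.13 (SE, n = 3 each, limma adjusted p = 0.0542). Ido1, a tryptophan-degrading enzyme, read 7.45, 8.90 and 7.47 with imatinib and 10.57, 11.71 and 9.96 with vehicle, a difference of -2.81 ± 0.56 (SE, limma adjusted p = 0.0593). As for Cxcl9, imatinib replicate 2 was its highest imatinib array and the groups did not overlap.

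Relative to each gene's mean over the 6 arrays, Cxcl9, Cxcl10 and Cxcl11 averaged -2.20, -0.35 and -3.03 on imatinib arrays 1, 2 and 3, and 1.90, 1.68 and 1.99 on vehicle arrays 1, 2 and 3. The 18 interferon gamma targets averaged -0.72, 0.15 and -1.12 with imatinib and 0.58, 0.54 and 0.56 with vehicle. In both sets imatinib replicate 3 was the lowest array and replicate 2 the nearest to vehicle. Macrophages and dendritic cells are common sources of these chemokines. The 12 tested macrophage markers averaged 0.02, -0.15 and -0.23 with imatinib and 0.18, 0.05 and 0.12 with vehicle, and none was called. The 8 dendritic cell markers averaged -0.23, -0.21 and -0.77 with imatinib and 0.48, 0.37 and 0.36 with vehicle. Of these 8, 6 had a lower mean with imatinib, against 45.7% of all genes, and 2 a higher mean. Of the 8, 1 was called, where 1.58% of all genes were. The called gene was Xcr1, the XCL1 receptor that marks cross-presenting dendritic cells. Xcr1 was at least 1.81-fold lower with imatinib, where no array detected it (limma adjusted p = 0.0417). It passed the filter only through the vehicle arrays. Siglech, named after its values were seen, was higher on every imatinib array, by 0.50 ± 0.17 (SE, limma adjusted p = 0.131). The summed level of the dendritic cell markers was 1551 to 1723 with imatinib and 2362 to 2584 with vehicle, and that of the macrophage markers 18084 to 22756 with imatinib and 22140 to 25068 with vehicle. The part of either cell type in the ligands' differences was not tested.

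**Figure D3:**
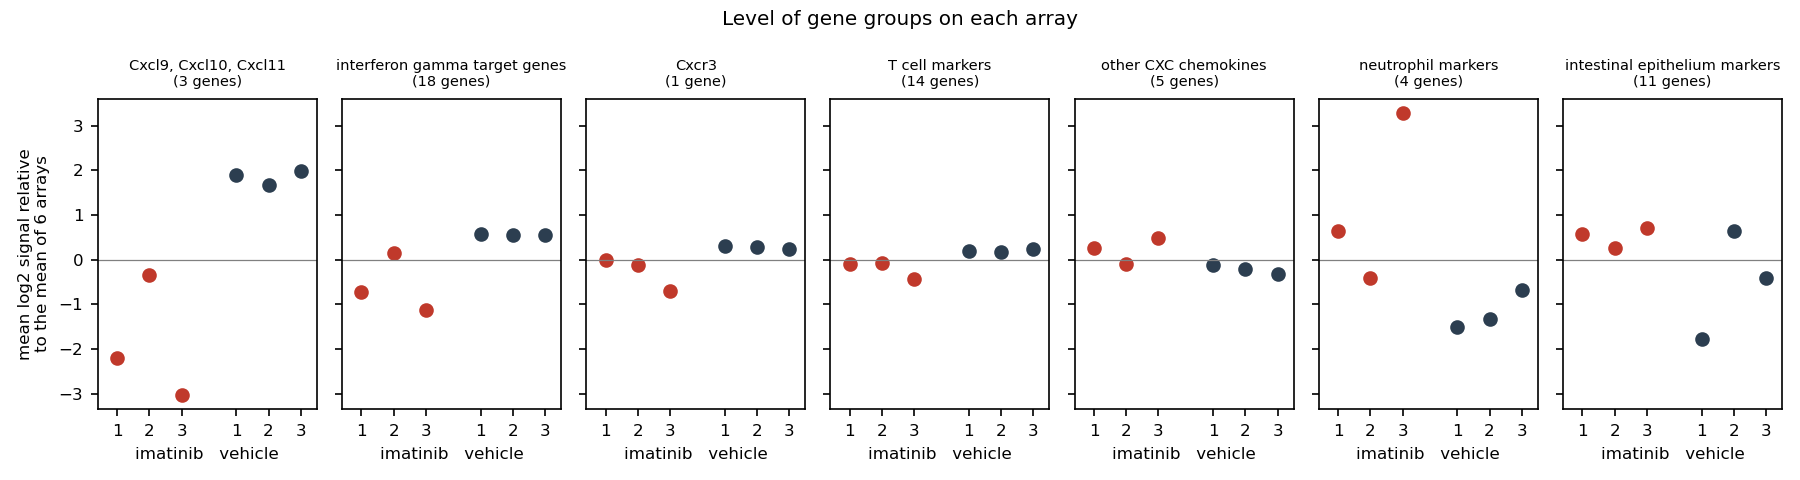
Mean log2 level of each gene group relative to its mean over the 6 arrays, shown (vertical axis) for the 3 imatinib arrays and then the 3 vehicle arrays. The interferon-induced ligands run from -3.03 to -0.35 on imatinib arrays and from 1.68 to 1.99 on vehicle arrays. The other CXC chemokines run from -0.10 to 0.48 on imatinib arrays and from -0.32 to -0.12 on vehicle arrays. They include Cxcl5, which passed the filter only through the imatinib arrays. Taken apart (not drawn), Cxcl1 with Cxcl5 overlapped between groups, and so did Cxcl12, Cxcl14 and Cxcl16.

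The genes whose levels over the 6 arrays were most alike were named for each ligand, as a description over arrays of which each group shares its treatment. For Cxcl9 they were Isg15 (Pearson r = 0.999), Phf11d (r = 0.998) and Ifit2 (r = 0.998). For Cxcl10 they were Tuba1a (r = 0.999), Ifit3 (r = 0.998) and Gvin1 (r = 0.998). For Cxcl11 they were Gvin1 (r = 0.997), Hmgb2 (r = 0.997) and Ddx58 (r = 0.997). Isg15, Ifit2, Ifit3 and Ddx58 are known as interferon-stimulated genes, and Tuba1a encodes an alpha tubulin. An r of at least 0.95 with Cxcl9 was reached by 420 of 14712 other genes, or 2.85%. For Cxcr3 the most alike gene was Clec9a (r = 0.996), a receptor of cross-presenting dendritic cells. It read 6.76, 6.70 and 4.52 with imatinib and 7.87, 7.70 and 7.74 with vehicle, so the low imatinib replicate 3 was common to both. Clec9a was not detected on that array, so its value there is background, whereas Cxcr3 was detected.

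The median difference of the 3 interferon-induced ligands was -4.01, against 0.24 for the 5 other CXC chemokines that could be tested and 0.04 for all genes. The other CXC chemokines differed among themselves and are given by role.

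**Figure D4:**
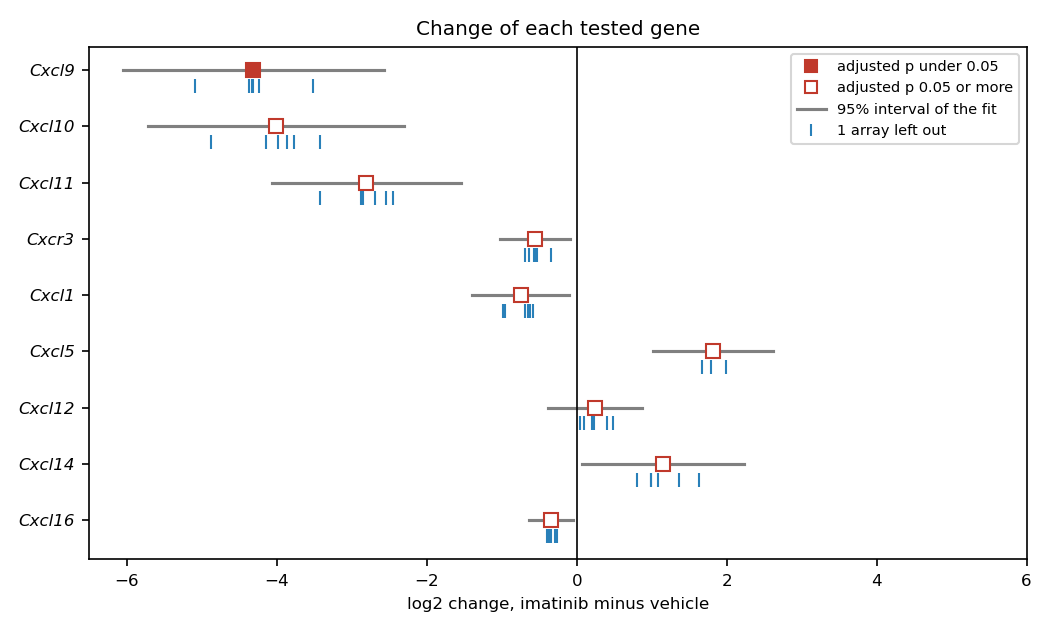
Log2 difference, imatinib minus vehicle, of each tested CXC gene with its 95% confidence interval, and ticks for the value with each array left out in turn. Cxcl9, Cxcl10 and Cxcl11 lie between -4.31 and -2.81, Cxcl5 lies at 1.82, and the rest lie between -0.75 and 1.15 (Cxcl5 shows only 3 ticks because its probe failed the filter when an imatinib array was left out).

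Cxcl1, also called KC, is a main neutrophil attractant of the mouse. It read 6.24, 6.01 and 6.79 with imatinib and 7.28, 6.67 and 7.34 with vehicle. The groups overlapped, since imatinib replicate 3 lay above vehicle replicate 2. The means were 6.35 ± 0.40 with imatinib and 7.10 ± 0.37 with vehicle (SD, n = 3 each), a difference of -0.75 ± 0.27 (SE, 95% confidence interval -1.39 to -0.11, limma adjusted p = 0.148). Its upstream window, the plus strand of chr5:90890995-90891244, is set beside those of the ligands because the same search found a kB consensus match but no ISRE or GAS. Capitals mark the kB match, which starts 71 bases upstream and is matched again on the other strand in overlap.
Cxcl1: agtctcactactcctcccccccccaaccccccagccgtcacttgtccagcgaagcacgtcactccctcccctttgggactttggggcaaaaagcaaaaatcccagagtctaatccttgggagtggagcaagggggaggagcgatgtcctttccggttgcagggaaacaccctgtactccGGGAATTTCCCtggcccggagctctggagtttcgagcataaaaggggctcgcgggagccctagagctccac

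Cxcl2, also called MIP-2, is the neighbour of Cxcl1 on chromosome 5. Both of its probes failed the detection filter. The first read 4.55, 4.35 and 6.44 with imatinib and 5.20, 4.74 and 4.47 with vehicle, and was detected on imatinib replicate 3 and vehicle replicate 1. The other read 4.46, 4.43 and 5.39 with imatinib and 4.64, 4.36 and 4.50 with vehicle, and was detected on imatinib replicate 3 alone. Cxcl2 was therefore measured above background chiefly in 1 imatinib tumour, and no comparison of groups was made. Its upstream window holds the same kB type of match, starting 97 bases from the start.

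**Figure D5:**
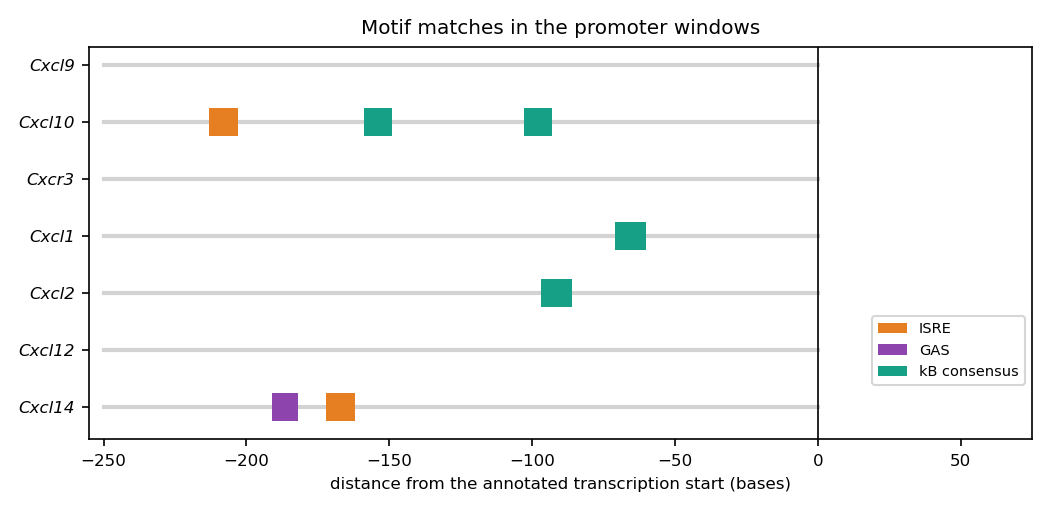
Matches to the ISRE, GAS and kB motifs in the 250 bases before the annotated start of the 7 CXC genes with a RefSeq promoter sequence, against distance from the start in bases. Cxcl10 holds an ISRE and 2 kB matches, Cxcl1 and Cxcl2 a kB match each, Cxcl14 a GAS and an ISRE, and Cxcl9, Cxcr3 and Cxcl12 none.

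Cxcl5, known as LIX in the mouse, is made largely by epithelial and stromal cells. It read 6.97, 5.83 and 6.81 with imatinib and 5.06, 4.43 and 4.67 with vehicle. It was detected on all 3 imatinib arrays and on no vehicle array, so it entered the test only through the imatinib group. With the vehicle arrays at their detection limit it was at least 2.67-fold higher with imatinib. The measured means were 6.54 ± 0.62 with imatinib and 4.72 ± 0.32 with vehicle (SD, n = 3 each), and the difference of 1.82 ± 0.33 (SE, 95% confidence interval 1.02 to 2.61) missed the threshold (limma adjusted p = 0.0542). The bound holds for this processing: the difference was 1.08 with a background offset of 50 and 0.86 in the authors' processed values. Cxcl5 lies beside Ppbp on chromosome 5.

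Neutrophil markers stand beside these values. Of 14 listed, 4 could be tested, all with a higher mean with imatinib, against 54.3% of all genes, and none called. Their summed level ran from 361 to 6944 with imatinib and from 173 to 288 with vehicle. S100a8, a calcium-binding protein abundant in neutrophils, read 8.61, 7.30 and 12.06 with imatinib and 4.86, 4.86 and 6.69 with vehicle (limma adjusted p = 0.122). The high array was imatinib replicate 3, the array on which Cxcl2 was detected by both probes. Retnlg and Cxcr2, chosen after their values were seen, were detected on that array and no other. The defining granule genes Elane, Mpo, Ngp and Ltf did not reach the detection filter. For Cxcl5 imatinib replicates 1 and 3 were close together, at 6.97 and 6.81, whereas S100a8 was highest on replicate 3. Imatinib replicate 2 was the lowest array of its group for both genes. The part of neutrophils in the values of Cxcl1, Cxcl2 and Cxcl5 was not tested.

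The signals upstream of these chemokines gave no common shift among the genes that could be tested. Of 18 NF-kB and interleukin 17 pathway genes listed, 11 could be tested, 5 with a lower and 6 with a higher mean with imatinib. None of the 11 was called, and their median difference was 0.06. Il1a, Il6, Il17a, Il17ra, Il1r1, Csf2 and Csf3 did not reach the detection filter. Interleukin 17, its receptor chain and the interleukin 1 receptor were therefore not compared. Il1b, the inflammatory cytokine interleukin 1 beta, read 7.94, 7.99 and 7.13 with imatinib and 9.69, 8.92 and 8.61 with vehicle, a difference of -1.39 ± 0.35 (SE, limma adjusted p = 0.0816). Its groups did not overlap. Nfkb2, an NF-kB subunit, differed by -0.38 ± 0.13 (SE, n = 3 each, limma adjusted p = 0.144).

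Cxcl12, also called SDF-1, is a constitutive stromal chemokine that binds CXCR4. Its brightest probe, of 5, read 9.49, 9.84 and 10.09 with imatinib and 10.04, 9.48 and 9.17 with vehicle. The groups overlapped throughout. The means were 9.81 ± 0.30 with imatinib and 9.56 ± 0.44 with vehicle (SD, n = 3 each), and the difference was 0.24 ± 0.26 (SE, 95% confidence interval -0.39 to 0.87, limma adjusted p = 0.574). The other 2 probes that passed the filter differed by -0.03 and 0.20. The interval leaves room for a change of up to 0.87 log2 units upward or 0.39 downward, so no difference was detectable with these arrays.

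Cxcl14, also called BRAK, is made by epithelia and other tissue cells. Its tested probe read 6.94, 6.39 and 7.14 with imatinib and 5.0, 6.66 and 5.37 with vehicle. Vehicle replicate 2 lay within the imatinib range and the other vehicle arrays lay below it. The means were 6.82 ± 0.39 with imatinib and 5.68 ± 0.87 with vehicle (SD, n = 3 each), a difference of 1.15 ± 0.45 (SE, 95% confidence interval 0.07 to 2.22, limma adjusted p = 0.171). The other probe of the gene differed by 0.05. The most alike gene over the 6 arrays was Myo1a (r = 0.998), the brush border myosin of intestinal epithelium. An r of at least 0.95 with Cxcl14 was reached by 633 of 14712 other genes, or 4.30%. The 11 tested markers of intestinal epithelium averaged 0.58, 0.26 and 0.71 on the imatinib arrays and -1.78, 0.65 and -0.41 on the vehicle arrays, relative to each gene's mean. Their order over the vehicle arrays was that of Cxcl14. The 8 tested smooth muscle markers, at -1.05, 0.37 and -0.25 on the vehicle arrays, had the same order. The summed level of the epithelial markers was 61373 to 80204 with imatinib and 15464 to 75523 with vehicle. All 11 had a higher mean with imatinib, against 54.3% of all genes, and none was called. The part of either tissue in the Cxcl14 values was not tested.

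Cxcl16 is a transmembrane chemokine that binds CXCR6 and is released by the proteases ADAM10 and ADAM17. Its tested probe read 10.32, 10.13 and 10.23 with imatinib and 10.72, 10.44 and 10.54 with vehicle. The groups were close but did not overlap. The means were 10.23 ± 0.09 with imatinib and 10.57 ± 0.14 with vehicle (SD, n = 3 each), a difference of -0.34 ± 0.12 (SE, 95% confidence interval -0.63 to -0.05, limma adjusted p = 0.15). Its other 2 probes differed by -0.78 and -0.54, in the same direction and by more than the tested probe.

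Proteins that trim, release or hold CXC chemokines were tested for 8 of 9 genes listed. Of these 5 had a lower and 3 a higher mean with imatinib, and 1 was called, where 1.58% of all genes were. Sdc1, the heparan sulfate proteoglycan syndecan 1 that binds chemokines at the cell surface, read 8.87, 8.54 and 9.17 with imatinib and 7.12, 7.37 and 7.39 with vehicle. It rose by 1.57 ± 0.19, or 2.96-fold (SE, n = 3 each, limma adjusted p = 0.0366). Fap, a stromal serine protease related to the CXCL10-trimming protease DPP4, differed by 0.74 ± 0.19 (SE, n = 3 each, limma adjusted p = 0.0869). Dpp4 and Adam17 are named after their values were seen. Dpp4 itself differed by -0.07 ± 0.45 with overlapping groups (SE, limma adjusted p = 0.936). Adam17 was lower on every imatinib array, by -0.32 ± 0.13 (SE, limma adjusted p = 0.177). The median difference of the 8 genes was -0.08.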

How the data were processed

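The probe table deposited for the 6 arrays holds, per the file headers, the intensity of each probe, its bead count, the standard error of that signal over beads and a detection p-value, without normalization between arrays. The deposited gene-level table has non-normalized log2 values. A further table has log2 values as the authors processed them. Partek is named, without a version, in the submitters' processing notes, and no scanner software is named in the sources used here.

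Probes were tied to gene-level rows by arithmetic (log2 of the mean of neighbouring probes, equal on all 6 arrays), which matched all 31492 rows, 31490 of them with distinct names. Names were updated through RefSeq tables. Intensities were corrected by normexp from detection p-values (limma's neqc, offset 16) and quantile-normalized. The added offset understates folds of dim genes. A probe was kept if 3 or more of the 6 arrays detected it at p under 0.05, and each gene was taken by its brightest kept probe. Groups were compared with limma 3.58.1 in R 4.3.3 without a block, and the fit was tested on simulated data. A probe that no array of a group detected gives a bound, set at each array's lowest detected signal or the probe's own value.

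The members and lists were chosen with earlier results of these data known. Named genes were the members, up to 4 called genes of each list (where fewer than 2 were called, the smallest p-values up to 2) and the 3 genes most alike by Pearson r for members the results turn on. Alternatives covered background, normalization, filter, probe choice, eBayes options, array weights, replicate block, the other deposited tables, the threshold and leaving out each array.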

Additional observations from a re-analysis of the deposited data

How the results depend on the processing

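The direction of all 9 tested CXC genes held under every alternative run, and the median of the interferon-induced ligands stayed between -4.88 and -3.42. Counts of calls were not stable. Against 232 genes in all, the calls were 355 with offset 50, 484 with cyclic loess, 408 with the mean of kept probes, 432 with trended and robust eBayes, 382 from the gene-level table, 385 from the authors' values, 1668 at an adjusted p under 0.1, 7585 with array weights (a fit that stopped before convergence) and 0 without a detection filter, and they ran from 0 to 1355 with an array left out. Against 1 CXC gene called, 3 were called with offset 50, no background correction, median centring, the gene-level table and the authors' values, 4 with cyclic loess, the mean of probes and an adjusted p under 0.1, 2 with trended eBayes, 8 with array weights, 0 with no filter or with detection on at least 1 array, and 0 to 5 with an array left out. Cxcl9 kept its difference of -4.31 but missed the threshold with no filter (limma adjusted p = 0.0714) and with detection on at least 1 array (limma adjusted p = 0.0511). It ran from -5.09 to -3.52 with an array left out and was called in 12 of 19 alternatives. Cxcl10 was called in 10 of 19, Cxcl11 in 9 of 18, Cxcl5 in 7 of 18 (added fits included) and Cxcl14 in 2 of 18. The median of the other CXC chemokines was -0.34 over genes detected on all 6 arrays, 0.48 with array weights, and -0.12 to 0.48 with an array left out. Its sign depended on which genes were in the set, and it was negative only in fits that lacked Cxcl5. Over genes detected on all 6 arrays Cxcl5 and Cxcl14 dropped out, while Cxcl1, Cxcl12 and Cxcl16 kept their differences. Without imatinib replicate 1, 2 or 3 Cxcl5 dropped out, and the medians were 0.01, -0.03 and -0.12. The cause of the other shifts was not tested.

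No pattern shared by same-numbered arrays was seen: their deviations correlated at -0.11, -0.31 and 0.02 over genes. Those of arrays with different numbers correlated from -0.20 to 0.25. Deviations within a group are tied to each other, so these values cannot show whether samples were paired. With the replicate number as a block, 0 genes and 0 CXC genes were called by limma, against 232 and 1 without it, and Cxcl9 was at -4.31 (limma adjusted p = 0.147). At an unadjusted p under 0.05 limma gave 2900 genes with the block and 3879 without it, 5183 with no detection filter, and 2402 to 2854 in the 4 fits that left out an array and called none. Leaving out an imatinib array removed Cxcl5 at the filter, so these fits were added after seeing the data with the probes of the full filter. They gave 1.60, 2.15 and 1.69 without imatinib replicate 1, 2 and 3. With 3 arrays a group and signals near background for Cxcl2, Cxcl5 and Cxcl11, their number limits the precision.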

Other observations

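Other CXC ligands and receptors gave a different picture from the CXCR3 ligands. Cxcl13, the chemokine that draws B cells through CXCR5, read 9.06, 9.13 and 10.11 with imatinib and 7.22, 7.29 and 8.33 with vehicle, a difference of 1.82 ± 0.40 (SE, limma adjusted p = 0.069). Its receptor Cxcr5 read 6.71, 7.18 and 7.26 with imatinib and 5.22, 5.07 and 5.46 with vehicle. Cxcr5 rose by 1.80 ± 0.19, or 3.48-fold (SE, limma adjusted p = 0.0338), and was detected on 3 imatinib and 2 vehicle arrays. It was the 1 gene called among 6 receptors tested, where 1.58% of all genes were called. Of the 6, 4 had a higher and 2 a lower mean with imatinib. Cxcr4 and Ackr1, named after their values were seen, were higher on every imatinib array. Cxcr4 differed by 1.08 ± 0.25 (SE, limma adjusted p = 0.0743) and Ackr1 by 1.73 ± 0.41 (SE, limma adjusted p = 0.0749). Ackr4, an atypical receptor that scavenges other chemokines, differed by -0.96 ± 0.18 (SE, n = 3 each, limma adjusted p = 0.0553). Pf4, a platelet chemokine, differed by -0.65 ± 0.26 (SE, n = 3 each, limma adjusted p = 0.174).

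B cell markers stand beside Cxcl13 and Cxcr5. All 8 tested had a higher mean with imatinib, against 54.3% of all genes, and 2 were called higher, Vpreb3 and Cd79a, where 0.523% of all genes were. Vpreb3, at least 2.19-fold higher, was detected on no vehicle array and passed the filter only through the imatinib arrays. Their summed level was 913 to 1288 with imatinib and 362 to 557 with vehicle. Their part in the Cxcl13 and Cxcr5 values was not tested.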
